A study of Mus musculus with 30 samples.

Results

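The regions described here are places in NIH3T3 cells where both SMC subunits of cohesin were called in ChIP-seq and RAD21 was not. They were chosen by the calls themselves. The 6 deposited cohesin lists (SMC1, RAD21 and SMC3, each in control cells and in cells expressing BORIS) were merged on chromosomes 1 to 19 wherever their regions overlapped or touched. The result was kept when it held a region of all 4 SMC lists and of neither RAD21 list. The rule kept 2474 of 146915 merged regions, or 1.68%.

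Cohesin is a ring. SMC1 and SMC3 are long ATPases that pair at their hinges, and RAD21 is the kleisin, the subunit that bridges their heads and closes the ring. In germ cells the related kleisins REC8 and RAD21L can take the place of RAD21, and somatic cells are known to rely on RAD21. On interphase chromosomes cohesin is known to accumulate at sites bound by CTCF. BORIS (CTCFL) is a paralog of CTCF that is normally found in the testis and has a similar zinc finger domain, and Snf2h is a motor subunit shared by remodelling complexes of the ISWI family, which space and move nucleosomes.

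The series held 30 mouse samples, and the peak lists of 8 ChIP-seq samples were analysed. NIH3T3 is an immortalised mouse embryonic fibroblast line, and the control cells stably carried an empty vector (EV) while the BORIS cells stably expressed BORIS and were those of clone 2, so they stand for 1 clone. CH12 is a mouse B lymphoma line, used as wild type and as a mutant that lacks CTCF zinc fingers 9 to 11 on both alleles after editing with Cas9; its 2 Snf2h lists served as a readout from another cell type. Cells were fixed with 1% formaldehyde for 10 min and chromatin was sheared to 200 to 600 bp, per the labels. Each group had 1 list, so no difference has a replicate check and no p-value is given. The other samples were not analysed here.

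The 4 SMC lists held 98604 to 105041 regions on chromosomes 1 to 19, and the RAD21 lists held fewer, 82401 in EV cells and 80268 in BORIS cells. A stand-in for depth, the lowest background rate of a list divided by its narrowest region, was 8.24 to 8.79 fragments per kb in the SMC lists and 7.43 to 7.76 in the RAD21 lists. Both RAD21 lists were therefore shorter and shallower than every SMC list, and the part of this in the missing RAD21 calls was not tested. Coordinates are those of the lists, counted from 1. The submitters' processing notes name mm9 as the mouse build. A genome of that build was not at hand, so genes, exons and promoters at these regions are not named and no sequence was read.

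Among the 60577 merged regions with both SMC1 and both SMC3 lists, 50858 also carried RAD21 in both lines, 7245 carried RAD21 in 1 line, and 2474 carried none. The last group was 4.08% of them (exact 95% binomial interval 3.93 to 4.24%, counting error only). Since this is the contrast that chose the regions, nothing is read from the share. Of the 7245 regions with 1 RAD21 call, 4152 had it in EV cells and 3093 in BORIS cells.

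The mirrored classes were smaller in the lists as deposited. RAD21 and SMC3 were called in both lines without SMC1 in either at 478 of 54627 regions, or 0.875%. RAD21 and SMC1 were called without SMC3 at 144 of 52531 regions, or 0.274%. Regions lacking RAD21 were 5.18 times (95% interval 4.69 to 5.72) as numerous as those lacking SMC1 and 17.2 times (14.5 to 20.5) as numerous as those lacking SMC3. Both ratios turned their direction when a −log10 q of at least 10 was required in the SMC lists alone, to 0.0196 and 0.0177, a setting that thins those lists by construction. The first ratio also did so when every list was cut to its 80268 strongest regions. It was then 0.876 (0.784 to 0.978), with 606 regions lacking RAD21 and 692 lacking SMC1, and the ratio to the 437 regions lacking SMC3 was 1.39. With summits clustered within 200 bp the second ratio was 8.69, and single lists also moved both. The first was 1.37 without the EV SMC1 list and 2.41 without the BORIS SMC1 list. There the class lacking SMC1 had to lack it in 1 list only, and grew by construction from 478 regions to 2737 and 1536. The second was 4.56, 4.59, 10.8 and 10.6 without EV SMC3, BORIS SMC3, BORIS SMC1 and BORIS RAD21. Without an SMC3 list the class lacking SMC3 likewise grew, from 144 regions to 925 and 903. The classes in those ratios then followed unlike rules. When all 6 lists were held to a −log10 q of 10 or more, the ratios were 2.80 (2.49 to 3.15) and 20.3 (15.4 to 27.3), from 1077 regions lacking RAD21. With the limit in the SMC lists alone, 22 regions lacked RAD21, so most of the 1077 had a RAD21 call below the limit. The excess over the class lacking SMC1 was thus seen in the full lists and not in lists of equal length. The stricter limit in all 6 cannot decide it, since it counts RAD21 calls below the limit as missing.

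The regions were narrow and weak. Their median width was 308 bp (quartiles 230 and 420 bp, range 133 to 1621 bp), and 15 were wider than 1 kb. Regions with RAD21 in 1 line had a median width of 336 bp and those of all 6 lists 458 bp. The mirrored classes were also narrow, with medians of 216 bp in regions lacking SMC1 and 314 bp in regions lacking SMC3. Most of the members were simple: 2185 of them, or 88.3%, were built from exactly 1 region of each SMC list.

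The deposited fold, the ratio of reads at the summit to the local background, had a median of 5.44 in EV SMC1 (range 2.19 to 19.1). It was 5.04 in BORIS SMC1 (2.21 to 14.9), 4.77 in EV SMC3 (2.24 to 14.8) and 4.80 in BORIS SMC3 (2.37 to 14.0). Regions lacking SMC3 had medians of 5.20 in EV SMC1 and 5.22 in BORIS SMC1. Those lacking SMC1 had 5.61 in EV SMC3 and 5.29 in BORIS SMC3, so weak SMC calls were not particular to the members. In regions of all 6 lists the medians were 12.5 in EV SMC1, 9.72 in BORIS SMC1, 13.8 in EV SMC3 and 11.4 in BORIS SMC3. Every upper quartile of the members lay below the median of the regions in all 6 lists. The calls of these same lists chose the members, so these values describe them and test nothing.

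**Figure D1:**
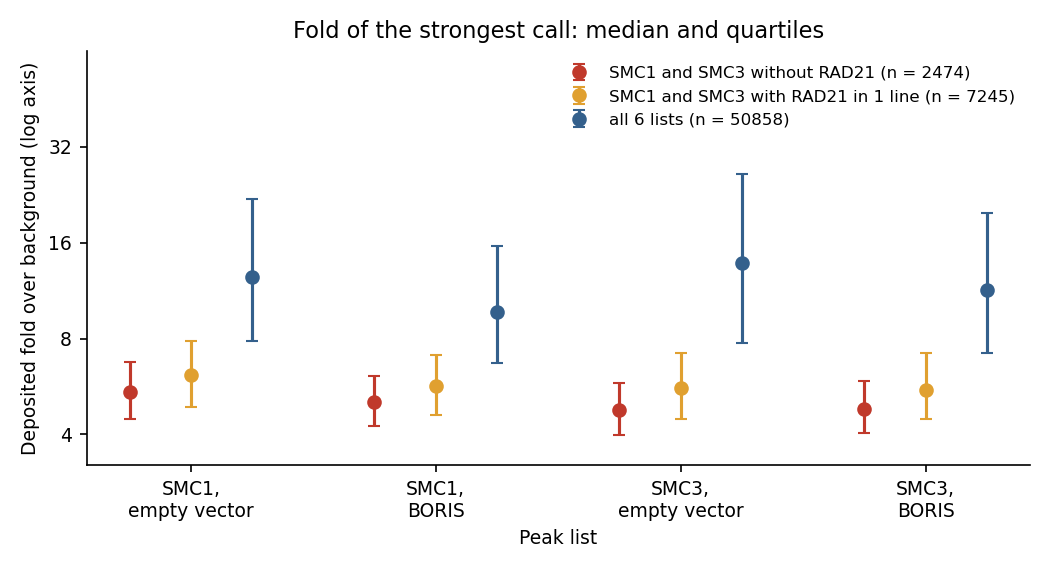
Deposited fold over background (vertical axis, log scale) in each SMC list (horizontal axis) for regions without RAD21, regions with RAD21 in 1 line and regions of all 6 lists. Points are medians and bars run from the lower to the upper quartile over regions. The regions without RAD21 have medians of 4.77 to 5.44 and lie lowest in all 4 lists.

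Fold and p-value together fix the number of fragments at a summit if the p-value is a Poisson tail, and this gave a whole number at 100% of summits (within 0.001 in −log10 p), leaving out those whose −log10 p reached 300. All 2474 members were solved in each SMC list, and 50625 to 50855 of the 50858 regions of all 6 lists, whose strongest summits are left out of these medians. The members had a median of 16 fragments at the EV SMC1 summit, 15 at BORIS SMC1, 15 at EV SMC3 and 14 at BORIS SMC3. The regions of all 6 lists had 37, 30, 40 and 34. The background rate under the members, relative to the lowest of the list, had medians of 2.03 to 2.15 in the 4 lists, against 2.00 to 2.07 under regions of all 6 lists. The members thus differed from the regions of all 6 lists in fragments at the summit far more than in local background.

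Each call was also given a percentile, its rank by −log10 p as a share of its list, with tied calls given their mean rank. The median percentile of the members was 35.9 in EV SMC1, 30.2 in BORIS SMC1, 25.6 in EV SMC3 and 26.7 in BORIS SMC3. The lowest of the 4 percentiles, which measures the least certain SMC call of a region, had a median of 11.4 (quartiles 5.07 and 20.0). It was 18.5 in regions with RAD21 in 1 line and 63.1 in regions of all 6 lists. Of the members, 12 had all 4 percentiles above 50, and the highest lowest-percentile was 64.

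By percentile within its list, the weakest call of a member was the EV SMC3 call in 755 regions, BORIS SMC3 in 680, BORIS SMC1 in 605 and EV SMC1 in 434. A −log10 q of at least 10 was reached by 763 members in EV SMC1, 498 in BORIS SMC1, 393 in EV SMC3 and 428 in BORIS SMC3. No list reached it in 1129 members, 1 list in 772, 2 lists in 430, 3 lists in 122 and all 4 lists in 21. Those 21 were 0.849% of the members, and the limit was reached in all 4 SMC lists by 4.93% of regions with RAD21 in 1 line, 66.3% of regions in all 6 lists and 56.3% of all regions with 4 SMC calls. These lists chose the members, so the shares are a description.

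The members were concentrated at the weak end of the SMC signal. When the 60577 regions were ordered by their lowest percentile and split into deciles, the share without RAD21 was 20.7% in the weakest decile (exact 95% interval 19.7 to 21.7%). It then fell to 11.8%, 5.55%, 2.15%, 0.644% and 0.0495% over the next 5 deciles. In the strongest 4 deciles it was 0 of 24230 regions, which allows a share of up to 0.0124%. The weakest decile held 1253 members (50.6%), and the weakest 3 deciles held 93.0%.

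The same decline was seen when the regions were ordered by their mean percentile instead, an order chosen after the data were seen. The weakest decile then held 1546 members, 25.5% of its regions, and the next 4 deciles had shares of 9.81%, 3.68%, 1.67% and 0.149%.

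**Figure D2:**
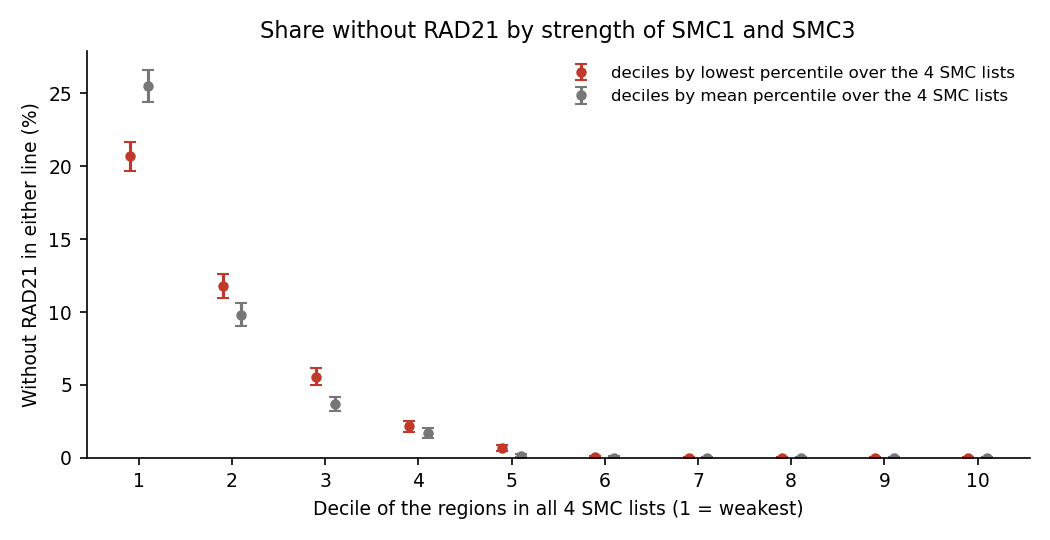
Share of regions without RAD21 in either line (vertical axis, %) in deciles of the 60577 regions with all 4 SMC calls (horizontal axis, 1 = weakest), ordered by the lowest or the mean percentile. Bars are exact 95% binomial intervals. The share is 20.7% or 25.5% in the weakest decile and below 1% from decile 5 on.

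RAD21 fragments at uncalled places were not in the lists, so the signal a RAD21 call would have needed was calculated from the background. Where regions were called in all 6 lists, the background rate of RAD21, scaled by the lowest rate of each list, was 1.000 times that of the SMC lists at the median in both lines (5th to 95th percentile 0.774 to 1.28 in EV and 0.769 to 1.27 in BORIS). At that background, the median member needed 8 RAD21 fragments to reach the lowest p of its RAD21 list and 11 to reach the list's 5th percentile of −log10 p. The smaller of the SMC1 and SMC3 pileups of the same line had a median of 13.

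The fold needed at the lowest p was 3.02 in EV and 3.03 in BORIS at the median, and at the 5th percentile it was 4.00 in both lines. The SMC folds and pileups of the members carry the choice, since every member had to pass both SMC calls at nearly the same lowest −log10 p (3.18 to 3.24 in the SMC lists, 3.30 and 3.31 in the RAD21 lists), so nothing is read from their being above the RAD21 level. RAD21 at the members was not measured, and its part below the calling threshold was not tested. Regions in the weakest decile with all 6 calls had median RAD21 folds of 5.44 in EV and 5.13 in BORIS, beside 5.71 and 4.54 for SMC1 and 5.32 and 4.91 for SMC3 (EV first in each pair). Those regions were kept because RAD21 was called, so their RAD21 folds carry that choice. The calculation uses the p-value alone, and other filters of the caller were not modelled.

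Across the members, the ranks in the 4 pairs of lists compared went together loosely. Spearman's rho across the 2474 regions was 0.172 between EV SMC1 and EV SMC3, 0.244 between BORIS SMC1 and BORIS SMC3, 0.242 between the SMC1 lists and 0.285 between the SMC3 lists. In regions with RAD21 in 1 line the 4 values were 0.313, 0.389, 0.155 and 0.266, and in regions of all 6 lists 0.904, 0.874, 0.817 and 0.869. These are descriptions over regions that are not independent, and the members cover a narrower range of ranks.

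The percentiles of different lists are not on 1 scale, because the lists differ in length and a longer list with more weak calls gives a weak region a higher percentile. SMC1 had the higher percentile in EV cells in 1574 of the 2474 members, with a median difference of 7.51 points, where the SMC1 list held 104020 regions and the SMC3 list 98604. In BORIS cells it did so in 1330, with a median difference of 2.30, where the lists held 100107 and 105041.

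Between the lines, the SMC1 percentile was higher in BORIS than in EV cells in 1044 members, with a median difference of −4.02 points, and the SMC3 percentile in 1300, with a median difference of 0.961. For both antibodies the median was higher in the line with the longer list. In regions of all 6 lists the medians were −1.16 for SMC1 and 0.279 for SMC3. The part of list length in these differences was not tested, and no change between antibodies or lines is read from them.

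Summits of the members lay near each other but less tightly than at regions of all 6 lists. The EV SMC1 and EV SMC3 summits were a median of 34 bp apart (quartiles 15 and 73 bp), and 63.0% of members had them within 50 bp. The distance was 37 bp in BORIS cells, 35 bp between the SMC1 lists and 37 bp between the SMC3 lists. All 4 SMC summits fell within a median span of 77 bp, against 65 bp in regions with RAD21 in 1 line and 31 bp in regions of all 6 lists.

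The members lay on all 19 chromosomes, from 55 on chromosome 14 to 224 on chromosome 11. As a share of regions with all 4 SMC calls they ran from 3.11% on chromosome 14 (exact 95% interval 2.35 to 4.03%) to 4.87% on chromosome 9 (4.15 to 5.66%). The interval lay above the overall 4.08% on chromosomes 9 and 11 (4.67%, 4.09 to 5.30%) and below it on chromosomes 14 and 16 (3.21%, 2.49 to 4.06%). On the other 15 chromosomes it held the overall share.

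**Figure D3:**
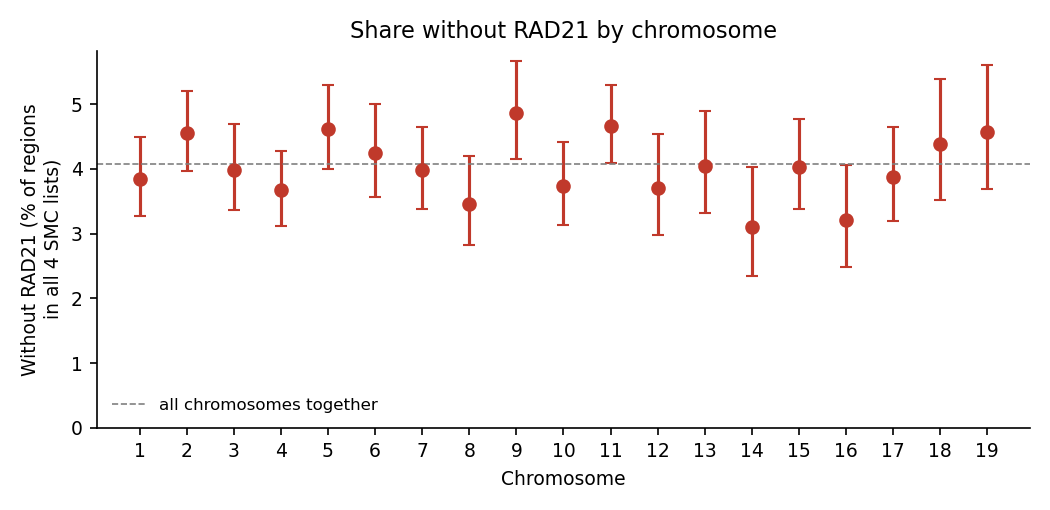
Share of regions with all 4 SMC calls that lack RAD21 in both lines (vertical axis, %) on each of the 19 chromosomes (horizontal axis), with exact 95% binomial intervals as bars and the share over all chromosomes, 4.08%, as a dashed line. The shares run from 3.11% to 4.87%, and most intervals include the line.

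In bins of 5 Mb, 428 of 504 bins held a member, with a median of 4 and a highest count of 27. That bin, chr5:135000001-140000000, held 337 regions with all 4 SMC calls, of which 8.01% (5.35 to 11.4%) lacked RAD21. Across bins, the number of members went with the number of regions with all 4 SMC calls (Spearman's rho 0.868 over 504 bins, as a description), so bins rich in cohesin were also rich in members.

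Members were mostly far from each other. The nearest other member was a median of 133090 bp away, and 57 (2.30%, 1.75 to 2.97%) had one within 1 kb. From regions with RAD21 in 1 line the nearest member was a median of 155580 bp away, with 1.63% (1.35 to 1.95%) within 1 kb, and from regions of all 6 lists 188218 bp, with 1.02% (0.939 to 1.12%). In the weakest decile the medians were 130385 bp from members and 211182 bp from regions of all 6 lists, with 2.55% (1.75 to 3.59%) and 1.40% (0.975 to 1.94%) within 1 kb. In the next decile they were 138227 and 199988 bp, with 1.96% (1.08 to 3.27%) and 1.39% (1.02 to 1.84%). Members thus lay nearer to other members than the regions of all 6 lists did at the median. Within both deciles the intervals of the shares within 1 kb overlapped. The tightest group of 5 members spanned 38.7 kb (chr11:48647202-48685882) and the next 2 spanned 70.5 kb (chr3:88419986-88490476) and 98.6 kb (chr2:30626367-30724966). Between and beside the 5 members, these spans held 5, 5 and 8 regions of all 6 lists.

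RAD21 itself was often near. The nearest other merged region with RAD21 in either line was a median of 2792 bp from a member (quartiles 710 and 8316 bp). It was within 1 kb of 740 members, or 29.9% (28.1 to 31.8%), and beyond 10 kb of 486. The median was 5457 bp for the 1077 regions lacking RAD21 when a −log10 q of at least 10 was required in all 6 lists. That limit also removes RAD21 regions, and most of those 1077 had a weaker RAD21 call in the full lists. Regions with RAD21 in 1 line had a median of 3006 bp and 28.6% within 1 kb (27.6 to 29.7%), and regions of all 6 lists had 3786 bp and 23.2% (22.9 to 23.6%). Within the weakest decile the shares within 1 kb were 32.7% (30.1 to 35.4%), 32.5% (30.6 to 34.4%) and 27.9% (26.1 to 29.7%) for the same 3 classes. In the next decile they were 28.9% (25.6 to 32.4%), 27.3% (25.3 to 29.3%) and 26.6% (25.1 to 28.1%). Another RAD21 region was thus within 1 kb of more members than regions of all 6 lists over the whole class and in the weakest decile, while in the next decile the intervals overlapped. The intervals of the members and of regions with RAD21 in 1 line overlapped in all 3 comparisons.

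Of the 740 members with RAD21 within 1 kb, 440 (59.5%) had a region of all 6 lists as that neighbour. Counting any other cohesin region, 1168 members (47.2%, 45.2 to 49.2%) had one within 1 kb and 1306 had none. The share was 42.4% (41.2 to 43.5%) in regions with RAD21 in 1 line and 35.2% (34.8 to 35.6%) in regions of all 6 lists.

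**Figure D4:**
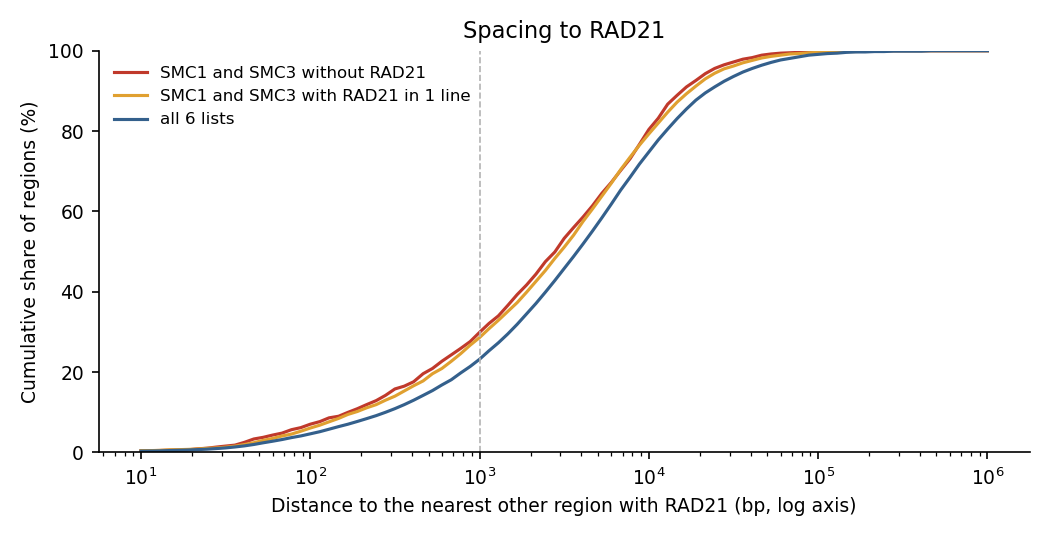
Cumulative share of regions (vertical axis, %) by distance to the nearest other merged region with RAD21 in either line (horizontal axis, bp, log scale), for the 3 classes with all 4 SMC calls. The dashed line marks 1 kb, where the curves stand at 29.9%, 28.6% and 23.2%.

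The members near RAD21 differed from the remote ones in width and background. The 740 within 1 kb had a median width of 345 bp, the 1248 at 1 to 10 kb had 298 bp and the 486 beyond 10 kb had 272 bp. The relative background under EV SMC1 was 2.35, 2.10 and 1.72, and the EV SMC1 fold was 5.07, 5.56 and 5.62. Members close to RAD21 were therefore wider and stood on a higher background with a lower fold than those far from it.

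Snf2h was a readout the choice did not use. A region of the wild-type CH12 list overlapped 101 members, or 4.08% (exact 95% interval 3.34 to 4.94%), against 4.04% of all merged cohesin regions. A region of the mutant list overlapped 162, or 6.55% (5.61 to 7.60%), against 5.63% of all merged regions. The wild-type share lay near its background, and the lower bound of the mutant share lay just under its own. With a −log10 q of at least 10 required in all 6 cohesin lists, the 1077 regions then lacking RAD21 were at 6.59% (5.18 to 8.24%) and 10.7% (8.90 to 12.7%). With that limit in the SMC lists alone, 22 regions lacked RAD21. Most of the 1077 thus had a RAD21 call below the limit in the full lists and were not members. All merged regions at the limit in all 6 lists were at 6.0% and 7.75%. For the 1077, the interval of the wild-type share held its background and that of the mutant share lay above its own. Regions of all 6 lists were then at 10.7% (10.3 to 11.0%) and 12.8% (12.4 to 13.1%). Both lists overlapped 70 members and at least 1 list 193.

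Regions of all 6 lists met Snf2h more often, at 8.23% (8.0 to 8.48%) in wild type and 10.6% (10.3 to 10.8%) in the mutant. Regions with RAD21 in 1 line were at 3.27% (2.87 to 3.71%) and 6.16% (5.61 to 6.73%), with intervals that overlapped those of the members. Regions lacking SMC1 were lower, at 1.26% (0.462 to 2.71%) and 1.05% (0.340 to 2.42%). Regions lacking SMC3 were at 3.47% (1.14 to 7.92%) and 7.64% (3.87 to 13.3%).

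**Figure D5:**
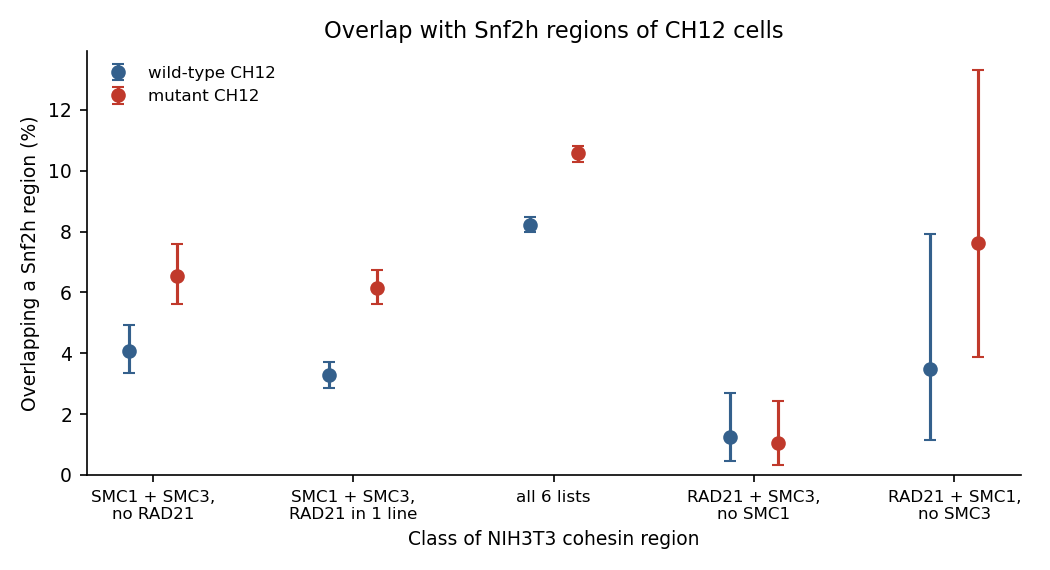
Share of regions overlapping a Snf2h region of wild-type or mutant CH12 cells (vertical axis, %) for 5 classes of NIH3T3 cohesin region (horizontal axis), with exact 95% binomial intervals. Regions without RAD21 stand at 4.08% and 6.55%, below regions of all 6 lists and above the regions lacking SMC1.

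Width and strength moved with these shares. In a fixed window of 200 bp at the median summit, the members were at 3.27% (2.61 to 4.05%) in wild type and 5.38% (4.52 to 6.34%) in the mutant, and regions of all 6 lists at 7.10% and 8.88%. Within the weakest decile the members were at 3.91% (2.91 to 5.14%) and 7.34% (5.96 to 8.93%), and regions of all 6 lists at 4.07% (3.33 to 4.92%) and 6.63% (5.69 to 7.68%). At equal window the difference from the regions of all 6 lists was still present, and in the weakest decile the intervals overlapped. With deciles of the mean percentile, the wild-type shares of the members and of regions in all 6 lists were 3.62% and 4.40% in decile 1, 4.71% and 4.24% in decile 2 and 2.24% and 4.58% in decile 3, with overlapping intervals. In decile 4, with 101 members, they were 10.9% (5.56 to 18.7%) and 4.23% (3.69 to 4.82%). The mutant shares were 6.79% and 8.60%, 5.22% and 7.80%, 5.38% and 6.40%, and 11.9% and 6.97% in the same 4 deciles, with overlapping intervals. No direction was thus common to the 4 deciles.

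The Snf2h overlap of the members also went with the distance to RAD21. In the mutant list it was 10.8% (8.67 to 13.3%) for members within 1 kb of RAD21, 4.49% (3.41 to 5.79%) at 1 to 10 kb and 5.35% (3.52 to 7.74%) beyond. In the wild-type list it was 5.81% (4.24 to 7.75%), 3.61% (2.64 to 4.80%) and 2.67% (1.43 to 4.53%). Only the members within 1 kb stood apart from both other groups in the mutant list. The 193 members with Snf2h in at least 1 list had a median width of 387 bp, against 302 bp for the rest, and 45.1% of them had RAD21 within 1 kb, against 28.6%. The part of width in this was not tested. The Snf2h regions that met a member were of middling rank in their own lists, with a median percentile of 45.2 in wild type and 50.1 in the mutant.

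Individual members show what the class looks like at its strong end. The highest lowest-percentile belonged to chr11:6536165-6536483, a region of 319 bp whose nearest RAD21 lay 6173 bp away. Its fold was 11.5 in EV SMC1, 8.57 in BORIS SMC1, 11.2 in EV SMC3 and 11.5 in BORIS SMC3, from 30, 22, 30 and 39 fragments. All 4 of its −log10 q values were above 15, so SMC1 and SMC3 were both well above their backgrounds in both lines while RAD21 was called in neither.

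The next was chr11:98185398-98185643, which overlapped a mutant Snf2h region. Its folds were 8.64 and 10.1 in SMC1 and 10.4 and 9.01 in SMC3 (EV first). At chr11:78998014-78998331 they were 8.12 and 8.35 in SMC1 and 10.6 and 10.3 in SMC3. These 3 strongest members thus all lay on chromosome 11, each more than 3 kb from RAD21.

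The other 3 of the 6 strongest members were weaker or nearer to RAD21. At chr6:64898935-64899148, which was 24861 bp from RAD21, the folds were 9.19 and 9.46 in SMC1 and 9.21 and 6.86 in SMC3. At chr4:114707739-114708014 they were 5.98 and 6.04 in SMC1 and 5.56 and 7.05 in SMC3, from 29 to 38 fragments. At chr10:74980560-74980868, which lay 362 bp from RAD21 and met a mutant Snf2h region, all 4 folds were between 5.83 and 6.16. The chromosome 4 region had about as many fragments as the first member in EV SMC1 and both SMC3 lists, and 33 against 22 in BORIS SMC1. Its folds were lower in all 4 lists, since its background was higher.

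Among members beyond 10 kb of RAD21, the strongest after the chromosome 6 region was chr16:20371779-20372259. Its BORIS SMC1 fold was 12.5, the highest of its 4 values, beside 8.32 in EV SMC1, 7.28 in EV SMC3 and 6.61 in BORIS SMC3. At chr10:114648305-114648508, which was 21201 bp from RAD21, the folds were 6.71, 7.17, 8.20 and 9.34 in the same order of EV SMC1, BORIS SMC1, EV SMC3 and BORIS SMC3. The first of these regions had its outlying value in one SMC1 list, and in the second SMC3 was above SMC1 in both lines.

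The strongest members that overlapped Snf2h in both CH12 lists were chr2:122202857-122203367 and chr2:132088041-132088356, which lay 187 and 189 bp from RAD21, and chr5:114638987-114639246, 1552 bp from RAD21. The folds of the first were 7.99 in EV SMC1, 6.71 in BORIS SMC1, 7.51 in EV SMC3 and 6.80 in BORIS SMC3. Those of the second were 9.86, 6.96, 10.5 and 8.02, with both SMC values lower in BORIS cells. In the third they were 6.99, 9.31, 8.26 and 9.04, with both higher in BORIS cells. These 3 regions thus had no common direction between the lines.

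The widest member, chr10:119795202-119796822, spanned 1621 bp, was 33917 bp from RAD21 and had folds of 4.52 in EV SMC1, 5.71 in BORIS SMC1, 6.33 in EV SMC3 and 6.63 in BORIS SMC3. It was wide without being strong, with a lowest percentile of 22.4.

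The threshold of the choice is the call itself, a q of 0.05. Just inside it were chr16:4789292-4789627, whose EV SMC1 call had a −log10 q of 1.32 and a fold of 2.30, and chr11:57822951-57823425, whose EV SMC3 call had a −log10 q of 1.39 and a fold of 2.40. Both lay close to a RAD21 region, at 79 and 27 bp. Outside by 1 missing call was chr5:93596989-93597285, strong in 3 SMC lists (folds of 10.4 in EV SMC1, 9.07 in EV SMC3 and 9.44 in BORIS SMC3) and not called in BORIS SMC1. How near it came to that call is not known. Also outside was chr3:86953971-86954404, called in all 4 SMC lists and kept out by an EV RAD21 call with a −log10 q of 1.31, a fold of 2.47 and 12 fragments. In all, 5693 regions without RAD21 were called in 3 of the 4 SMC lists, more than were called in all 4. The missing call was EV SMC3 in 1696 of them, BORIS SMC3 in 1615, EV SMC1 in 1192 and BORIS SMC1 in 1190.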

How the data were processed

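Peak lists in the narrowPeak layout were used for 6 cohesin and 2 Snf2h ChIP-seq samples, 1 list per group. The submitters' processing notes name Bowtie, Bowtie2, SAMtools, MACS2 and deepTools 3.5.0 and the builds mm9 and hg19, with no role or order. The control, filters and pooling are not given in the sources used here. The names of the Snf2h regions carry a tag that may mean pooled replicates. The authors deposited for each region a score, a fold (the ratio of summit pileup to local background, per the column layout), and the −log10 p-value and −log10 q-value of the summit. These values are the authors'. Ranks were taken within each list, and folds from different lists are set side by side as deposited, with no scaling between lists.

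Lists were merged on chromosomes 1 to 19, joining regions that overlap or touch; where a list had several regions in a merged region, the strongest by −log10 p was taken. Overlap needed 1 bp. Pileups and backgrounds were solved from fold and p-value under a Poisson tail, with the fold taken as pileup plus 1 over background plus 1. Merging, classes, overlaps and this step were tested on simulated data. Shares carry exact (Clopper-Pearson) 95% intervals, for counting error only, and neighbouring regions are not independent. For a count of 0 the upper limit is 3 counts of the total. Python 3.11.15, numpy 2.4.6, pandas 2.3.3, SciPy 1.17.1 and matplotlib 3.10.9 were used.

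Among members at most 3 kb wide, those named were the 6 with the highest lowest-percentile and the 3 highest beyond 10 kb of RAD21. Also among them were the 3 highest with Snf2h in both CH12 lists and 2 just inside the threshold. Besides these, 2 regions left out by 1 call, the widest member whatever its width and the 3 tightest groups of 5 were named. The members, classes and rules were chosen with earlier results of these data known. The planned analysis of sequence was not run, since no genome of the build was at hand. The alternatives were stricter calls, lists of equal length, no RAD21 within 1 kb, clustered summits, no merging, added sex chromosomes and each cohesin list left out in turn.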

Additional observations from a re-analysis of the deposited data

How the results depend on the processing

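Of 106 values recomputed under alternatives, 40 stayed within the interval of the reported value (for the count, within 1.5 times), 63 moved beyond it and 3 turned their direction. Keeping only regions of −log10 q 10 or more in the SMC1 and SMC3 lists, 22 regions lacked RAD21 (0.0645% of regions with all 4 SMC calls), the ratios to regions lacking SMC1 and SMC3 were 0.0196 and 0.0177, the mutant Snf2h share was 13.6%, the median distance to RAD21 was 3408 bp and the median lowest percentile 50.3. This setting by construction thins the SMC lists and not the RAD21 lists. The same limit in all 6 lists also removes RAD21 calls, and most regions then lacking RAD21 had a weaker one in the full lists. The values were then 1077 regions, 3.16%, a ratio of 2.80 to regions lacking SMC1, Snf2h shares of 6.59% (wild type) and 10.7% (mutant), 5457 bp and 52.5. With equal numbers of regions they were 606 regions, 1.24%, ratios of 0.876 and 1.39, a wild-type Snf2h share of 5.45%, 3142 bp and 28.5. With no RAD21 region within 1 kb they were 2.86%, ratios of 3.63 and 12, a mutant Snf2h share of 4.73% and 5474 bp. That filter cut only the regions lacking RAD21, to 1734. The 478 regions lacking SMC1, the 144 lacking SMC3 and the 60577 with all 4 SMC calls were left whole, so the share and ratios fell by construction. Summits clustered within 200 bp gave 4.33%, ratios of 4.15 and 8.69 and 2361 bp. Without merging, the share was 4.51% and the distance 2014 bp. The window of 200 bp, added after seeing the data, gave Snf2h shares of 3.27% and 5.38%. Beyond what the constructions themselves fix, the cause of these changes was not tested.

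Leaving out each list in turn relaxes the rule. The count then ran from 3700 to 6651: 3740, 3700, 4219 and 4147 without EV SMC1, BORIS SMC1, EV SMC3 and BORIS SMC3, and 6651 and 5577 without EV RAD21 and BORIS RAD21. The share ran from 5.58% to 11.0%, the ratio to regions lacking SMC1 from 1.37 to 7.75, the ratio to regions lacking SMC3 from 4.56 to 15.3, the Snf2h shares from 3.18% to 3.61% in wild type and from 5.37% to 6.39% in the mutant, the distance from 2734 to 3958 bp and the lowest percentile from 12.8 to 15.2. Without an SMC list, the mirrored class of that subunit had to lack it in 1 list only, so that ratio compared unlike rules. No paired analysis was possible because each group had 1 list and no test was made. The median SMC summit of the class rested on 14 to 16 fragments, and RAD21 below the calling threshold cannot be seen in these lists.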

Other observations

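Chromosome X, left out of the rule, held 41 further regions with SMC1 and SMC3 in both lines and RAD21 in neither. They were 3.29% (exact 95% interval 2.37 to 4.44%) of the 1245 regions on X with all 4 SMC calls, and the interval held the 4.08% of chromosomes 1 to 19. No region with all 4 SMC calls was listed on chromosome Y.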
